A study of Mus musculus with 12 samples.

Results

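The estrogen receptors, the estrogen-related receptors and a set of their coregulators were followed as 10 genes, picked by symbol, among the 55487 genes of the count tables. They were the nuclear estrogen receptors Esr1 and Esr2, the membrane estrogen receptor Gper1, the estrogen-related receptors Esrra and Esrrg, the coactivators Ppargc1a and Ppargc1b, the corepressor Nrip1, and the p160 coactivators Ncoa1 and Ncoa3. The first experiment compared bone marrow-derived macrophages (BMMs) of ovariectomized (OVX) mice with those of sham-operated mice, with 3 libraries per group. The second compared bone marrow mesenchymal stem cells (MSCs) kept alone (MSC), MSCs that shared medium with RAW264.7 cells through a transwell (MSC+RAW-TW), and MSCs that shared it with RAW264.7 cells given lipopolysaccharide (MSC+RAW-LPS-TW), with 2 libraries per group. RAW264.7 is a mouse macrophage line, and lipopolysaccharide (LPS) is a bacterial membrane component that activates macrophages. All animals were C57BL/6 and labelled as 8 weeks old, the source tissue was labelled limbs, and the operated animals were female. The macrophages of both operated groups were grown with macrophage colony-stimulating factor, and neither the labels nor the methods name an estrogen treatment. The labels do not state whether libraries of a group came from separate animals or cultures, so the p-values measure the spread between these libraries, which may be technical.

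Estrogen acts on bone mainly through the nuclear receptor encoded by Esr1, which binds the hormone and then DNA, and loss of estrogen after ovariectomy is followed by bone loss. A bound receptor recruits p160 coactivators such as those of Ncoa1 (SRC-1) and Ncoa3 (SRC-3), while the protein of Nrip1 (RIP140) binds the same receptors and represses. Estrogen-related receptors bind no estrogen. They work with the PGC-1 coactivators encoded by Ppargc1a and Ppargc1b to switch on genes of mitochondrial respiration and fatty acid oxidation, and PGC-1β is known for its part in the mitochondrial biogenesis of osteoclasts.

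Library sizes ran from 17012923 to 45367105 counts. Sham replicates 2 and 3 were nearly identical, as were the libraries of MSC+RAW-TW, whose columns in the table also share a name and replicate number and differ in library code. In these pairs the chi-square between the counts, relative to sampling alone, was 2.50 and 3.07 at low counts and 2.70 and 3.18 at high counts, whereas in the other pairs of one group it lay between 15.1 and 75.5 at high counts. Each such pair was therefore counted as 1 sample, giving n = 3 for OVX, 2 for sham, 2 for MSC, 1 for MSC+RAW-TW and 2 for MSC+RAW-LPS-TW. Levels are in CPM, counts scaled to library size with TMM factors set over all 12 libraries.

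The identity of the cells was examined with 12 macrophage and 12 stromal markers. All 12 macrophage markers held more than 3 counts in every library, the MSC libraries included. Their summed level was 42927 to 47221 CPM in OVX, 57255 to 64441 in sham, 25722 to 25915 in MSC, 31061 to 31456 in MSC+RAW-TW and 13422 to 13786 in MSC+RAW-LPS-TW. The summed stromal markers ran from 7248 to 7911 CPM in the BMM libraries, higher than in MSC (2766 to 2824), MSC+RAW-TW (2247 to 2252) and MSC+RAW-LPS-TW (3779 to 3843). The MSC marker Thy1 had a mean of 0.355 CPM in MSC against 61.4 in OVX. Ptprc, which encodes the leukocyte antigen CD45, was at 161 to 163 CPM in MSC and 112 to 166 in OVX, and Nt5e, which encodes CD73, was at 6.69 to 7.41 CPM in MSC and 6.31 to 9.86 in OVX. The study's methods describe its MSCs as positive for CD29, Sca-1, CD73 and CD44 and negative for CD34 and CD45 by flow cytometry. Markers of both kinds were thus present in the RNA under both labels. The levels of Ptprc, the macrophage markers and Thy1, which is not in that panel, in the MSC libraries go against their label. So do the summed stromal markers in the BMM libraries, which were higher than in the 3 MSC groups. Groups are called here by their labels, and no difference between them is assigned to a cell type. In such bulk libraries a difference in the cells present and a difference in RNA per cell cannot be told apart. None of the 12 markers of either list was at 0 in any library.

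**Figure D1:**
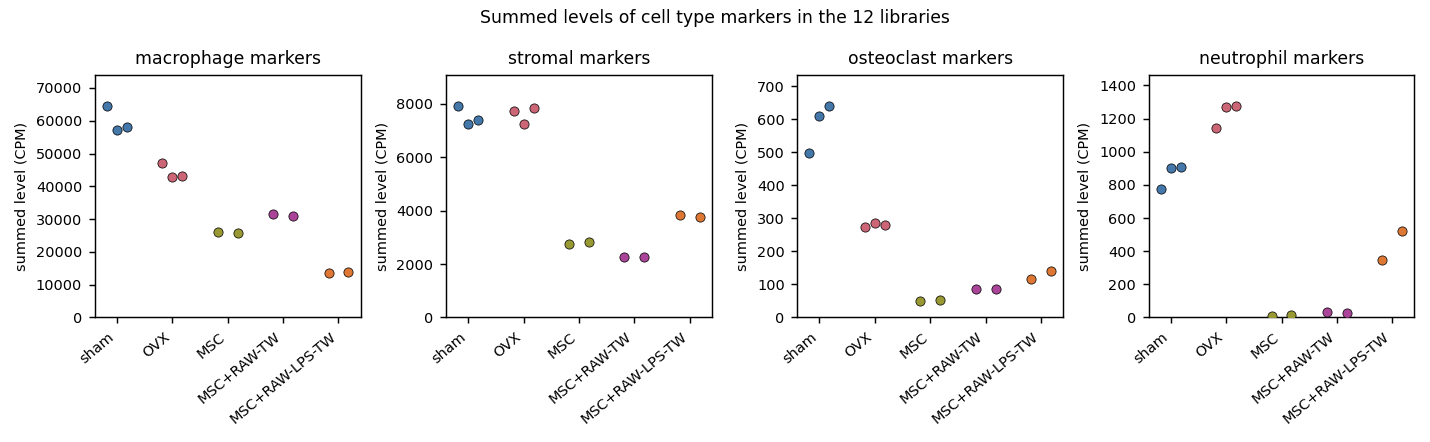
Summed level in CPM (vertical axes, from 0) of 12 macrophage, 12 stromal, 6 osteoclast and 7 neutrophil markers in each of the 12 libraries (points), by group. The macrophage markers are lowest in MSC+RAW-LPS-TW at 13422 to 13786 CPM, and the osteoclast markers lie between 273 and 285 CPM in OVX and between 497 and 639 CPM in sham.

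In 3 of the 4 comparisons the fold change of a gene went with its GC content. In OVX against sham the median log2 fold change fell from 0.68 to -0.43 between the lowest and the highest of 5 equal bins of GC content. In MSC+RAW-LPS-TW relative to MSC+RAW-TW it went from 0.81 to -0.49, and in MSC+RAW-TW against MSC from -0.70 to 0.54. In MSC+RAW-LPS-TW against MSC these medians were 0.06 and 0.05. The exons of Ppargc1b and Gper1 are rich in GC (57.8% and 56.4%), and those of Nrip1 are poor in it (43.6%), so values after lowess trends on GC content and length were taken out are given where that matters.

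**Figure D2:**
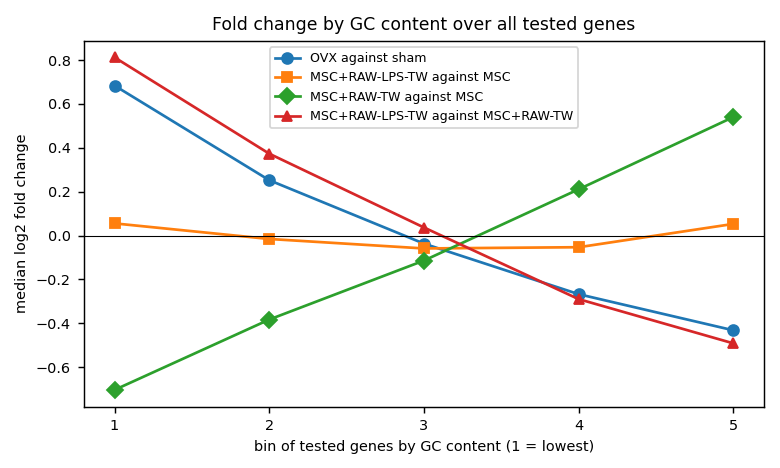
Median log2 fold change (vertical axis) over all tested genes in each of 5 equal bins of GC content (horizontal axis, 1 the lowest) for the 4 comparisons (lines). The line of MSC+RAW-LPS-TW against MSC stays between -0.06 and 0.06, and the other 3 lines slope.

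Of the 10 members, 7 passed the filter on low counts in each experiment. The other 3 were close to the limit of detection, where 3 counts correspond to between 0.0588 and 0.198 CPM. Esr2, on chromosome 12, had between 0 and 4 counts in a library and was at 0 in 7 of 12. Esrrg, on chromosome 1, had 2 counts in MSC+RAW-TW library a and in MSC+RAW-LPS-TW library b, and 0 in the other 10 libraries. Ppargc1a, on chromosome 5, had between 0 and 10 counts, with a mean of 0.219 ± 0.050 CPM (SD, n = 3) in OVX and 0.193 ± 0.128 (SD, n = 2) in sham. A change of these 3 genes was not detectable at this depth, and no fold is given.

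Among the 7 tested members the level per kilobase of exon was highest for Ncoa3 and lowest for Esr1 in all 5 groups. Ncoa3 stood at 6.05 CPM per kilobase in OVX and 15.1 in MSC+RAW-TW, and Esr1 at 0.188 and 0.240. The nuclear estrogen receptor was thus represented by few reads, from 26 counts in sham replicate 2 to 282 in MSC replicate 1. Esrra reached 3.66 to 5.91 CPM per kilobase over the 5 groups, and its coactivator Ppargc1b 0.382 to 1.22.

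The order of the groups differed from member to member. Esr1 was highest in MSC at 5.66 ± 0.19 CPM (SD, n = 2), and the libraries of the other 4 groups overlapped from each group to the next, between 2.57 CPM in OVX and 3.30 in MSC+RAW-LPS-TW. Ncoa1 had the same shape, with 43.8 ± 0.5 CPM (SD, n = 2) in MSC and overlapping neighbours from 26.3 down to 20.4 CPM. Ncoa3 separated all 5 groups, in the order MSC, MSC+RAW-TW, MSC+RAW-LPS-TW, sham and OVX. Nrip1 ran in the order MSC+RAW-LPS-TW, OVX, MSC, sham and MSC+RAW-TW, and here only sham and MSC+RAW-TW overlapped. Ppargc1b was highest in sham and lowest in MSC+RAW-LPS-TW, with sham, MSC and MSC+RAW-TW overlapping in turn, and OVX overlapping MSC+RAW-LPS-TW. Levels set across the 2 experiments were not tested.

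**Figure D3:**
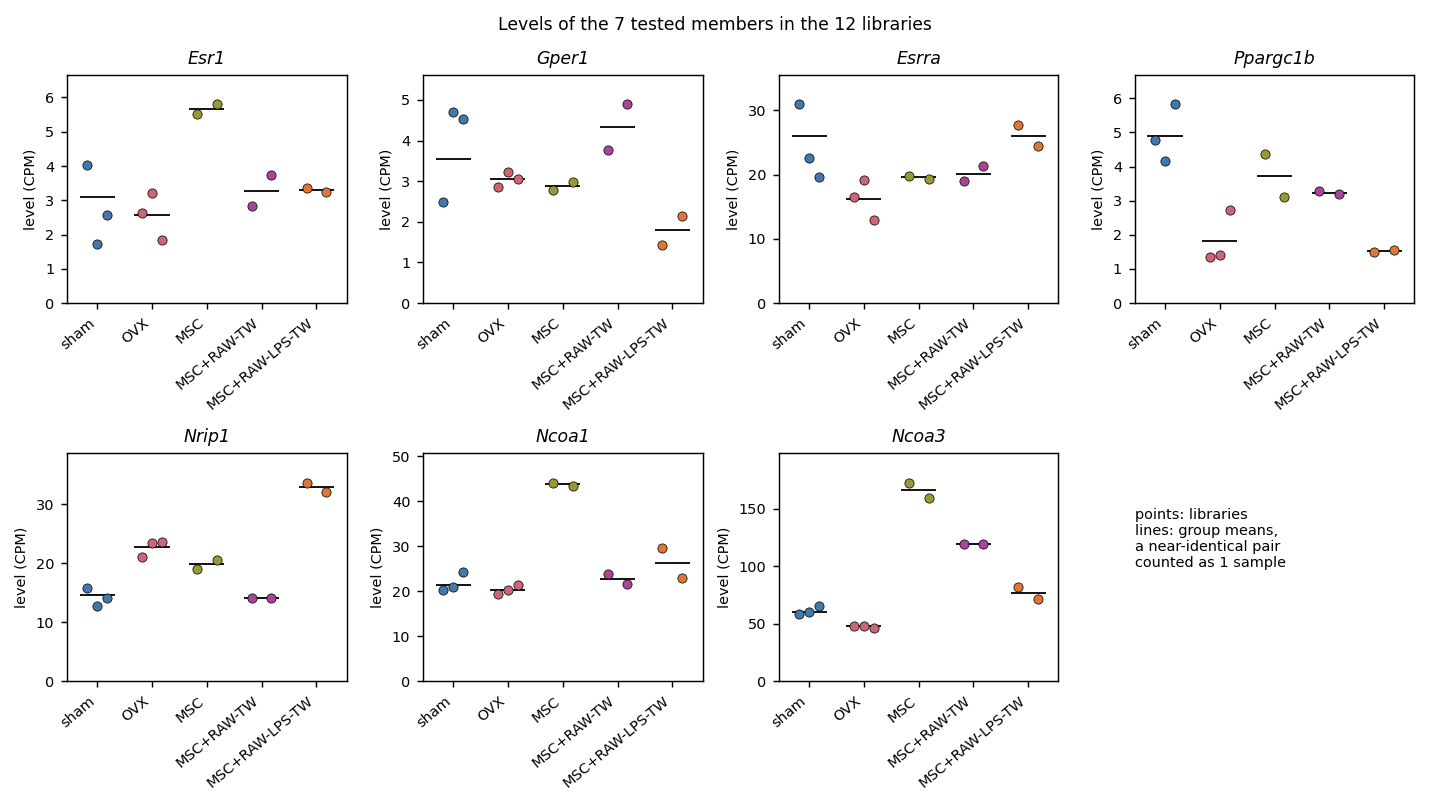
Level in CPM (vertical axes, from 0) of the 7 tested members in each library (points) by group, with the group mean as a line in which a near-identical pair counts as 1 sample. Esr1, Ncoa1 and Ncoa3 are highest in MSC, Nrip1 in MSC+RAW-LPS-TW, and Ppargc1b is low in OVX and in MSC+RAW-LPS-TW.

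The first comparison sets the BMM libraries labelled OVX against those labelled sham. Here Ppargc1b was lower in OVX and was the only member called, that is, changed at least 2-fold with an adjusted p of at most 0.05 (edgeR quasi-likelihood F-test, two-sided, Benjamini-Hochberg). Over all genes 9.06% were called, and 1 of 7 members is near that share. Nrip1, at 0.66 on the log2 scale, and Esrra, at -0.65, did not pass, and the estrogen receptors Esr1 and Gper1 overlapped between the groups.

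Ppargc1b (chromosome 18, 61298136 to 61400431, minus strand of GRCm38) was at 1.34, 1.41 and 2.73 CPM in OVX replicates 1 to 3 and at 4.76, 4.17 and 5.82 CPM in sham replicates 1 to 3. All OVX libraries lay below all sham libraries, and OVX replicate 3 was the nearest to them. The means were 1.83 ± 0.79 CPM (SD, n = 3) and 4.88 ± 0.16 (SD, n = 2). The log2 fold change was -1.41 (SE 0.37, adjusted p = 0.0400). The call was lost without OVX replicate 1 (-1.24, adjusted p = 0.118), OVX replicate 2 (-1.25, adjusted p = 0.151) or sham replicate 3 (-1.28, adjusted p = 0.0591). After GC and length trends were taken out the log2 fold change was -0.998 (adjusted p = 0.118).

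Osteoclast markers were lower in OVX than in sham. Of 6 listed, 5 were tested and 3 were called lower in OVX, with summed levels of 273 to 285 CPM in OVX and 497 to 639 in sham, and none was at 0 in a BMM library. The summed neutrophil markers were 1146 to 1275 CPM in OVX and 777 to 906 in sham, with none of 7 at 0. Of these 7, 4 were higher in OVX and the others lower, 1 passed the adjusted p and none was called. The summed B cell markers were 8.73 to 9.75 CPM in OVX and 20.4 to 24.2 in sham, with none of 4 at 0 and 2 called lower. Of 12 macrophage markers 3 were called lower in OVX, Spi1 (265 against 737 CPM), Adgre1 (974 against 2255 CPM) and Fcgr1 (149 against 327 CPM), and Mrc1 was called higher (214 against 53.9 CPM). Of 12 stromal markers Nt5e was called, at 8.28 against 3.06 CPM. The part of these cells in the level of Ppargc1b was not tested.

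Nrip1 (chromosome 16, 76287400 to 76373827, minus strand) was at 21.03, 23.4 and 23.7 CPM in OVX and at 15.8, 12.7 and 14.1 CPM in sham. The groups did not overlap, and the log2 fold change was 0.66 (SE 0.19, adjusted p = 0.0538). Nrip1 passed, under the limit on fold, with DESeq2 (adjusted p = 0.0137), with a filter at 1 CPM (adjusted p = 0.0459) and with the near-identical sham libraries kept separate (adjusted p = 0.0120). Without GC and length trends it was 0.13 (adjusted p = 0.690).

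Esrra (chromosome 19, 6910977 to 6921840, minus strand) was at 16.5, 19.2 and 12.9 CPM in OVX and at 30.9, 22.6 and 19.6 CPM in sham. Sham replicate 1 was the highest of them and OVX replicate 2 lay just under sham replicate 3. The log2 fold change was -0.65 (SE 0.25, adjusted p = 0.113). Esrra shares 73 bases of exon with Trmt112 on the opposite strand, and 91 with the microRNA gene Mir6990 on its own strand. The strand setting of the counting is not stated in the sources used here.

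Neither p160 coactivator passed. Ncoa3 (chromosome 2, 165992636 to 166073242, plus strand) was at 48.5, 48.1 and 46.7 CPM in OVX and 58.4, 60.5 and 65.2 CPM in sham. These groups did not overlap, yet the log2 fold change of -0.33 (SE 0.17, adjusted p = 0.218) did not pass. Ncoa1 (chromosome 12, 4247362 to 4477182, minus strand) overlapped, with a log2 fold change of -0.06 (SE 0.18, adjusted p = 0.843). In all, 4 of 7 members did not overlap between the groups, against 44.6% of all genes tested.

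For the estrogen receptors themselves no difference passed. Esr1 (chromosome 10, 4611593 to 5005614, plus strand) was at 2.64, 3.20 and 1.85 CPM in OVX and 4.03, 1.72 and 2.58 in sham, with a log2 fold change of -0.25 (SE 0.37, adjusted p = 0.693). The widest gap in Esr1 was inside the sham group, and without sham replicate 1 the value was 0.22. Gper1 (chromosome 5, 139423151 to 139427800, plus strand) was at 2.86, 3.23 and 3.05 CPM in OVX and 2.50, 4.70 and 4.53 in sham, a log2 fold change of -0.21 (SE 0.34, adjusted p = 0.718) that became 0.21 with the trends removed.

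The second comparison sets the libraries labelled MSC+RAW-LPS-TW, a co-culture with activated macrophages by its label, against those labelled MSC. Ppargc1b and Ncoa3 were called lower, Nrip1 rose and Ncoa1 fell by less than 2-fold, and none of the 7 members overlapped between the groups. Over all genes 11.8% were called and 22.0% passed the adjusted p without the limit on fold, against 2 and 4 of 7 members. The groups did not overlap in 59.3% of all genes.

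Ppargc1b was at 4.37 and 3.10 CPM in MSC replicates 1 and 2 and at 1.49 and 1.55 CPM in MSC+RAW-LPS-TW libraries a and b. The fall was 2.41-fold, with a log2 fold change of -1.27 (SE 0.35, adjusted p = 0.0228), and the spread lay mostly in MSC. Without MSC replicate 1 it was -1.01 and no longer passed (adjusted p = 0.236). Without the trends the value was -1.30 (adjusted p = 0.0191).

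Ncoa3 was at 173 and 159 CPM in MSC and at 81.7 and 71.2 CPM in MSC+RAW-LPS-TW, so that the lower MSC library was far above both others. The log2 fold change was -1.09 (SE 0.15, adjusted p = 0.000249). Without MSC+RAW-LPS-TW library b it was -0.99, under the limit on fold, so that the call was lost (adjusted p = 9.71e-06). Ncoa3 shares 154 bases of exon with Sulf2 on the opposite strand.

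Ncoa1, the other p160 coactivator, fell from 44.2 and 43.5 CPM in MSC to 29.7 and 22.9 CPM in MSC+RAW-LPS-TW. Its log2 fold change was -0.71 (SE 0.17, adjusted p = 0.00996). The corepressor Nrip1 went the other way, from 19.0 and 20.6 CPM to 33.6 and 32.1 CPM, and its log2 fold change was 0.76 (SE 0.16, adjusted p = 0.00506). The libraries of each group lay close together for Nrip1, but without MSC replicate 1 it no longer passed (0.69, adjusted p = 0.0641). Without the trends the values were -0.69 for Ncoa1 (adjusted p = 0.00653) and 0.69 for Nrip1 (adjusted p = 0.00706).

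The receptors did not pass in this comparison. Esr1 was at 5.53 and 5.80 CPM in MSC and 3.35 and 3.26 CPM in MSC+RAW-LPS-TW, a log2 fold change of -0.75 (SE 0.27, adjusted p = 0.0760). Gper1 was at 2.78 and 2.98 CPM in MSC and 1.44 and 2.15 in MSC+RAW-LPS-TW (log2 fold change -0.66, SE 0.35, adjusted p = 0.227). Esrra was at 19.8 and 19.3 CPM in MSC and 27.7 and 24.4 in MSC+RAW-LPS-TW (log2 fold change 0.44, SE 0.16, adjusted p = 0.0764), and passed with the trends removed (0.50, adjusted p = 0.0365). Both libraries thus held Esrra above and Ppargc1b below their levels in MSC.

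Marker levels moved in this comparison too. Of 12 macrophage markers, 4 were called lower (Cd68, Lyz2, Mrc1 and C1qa) and 1 higher (Adgre1). Of 12 stromal markers, 3 were called higher (Dcn, Lum and Nt5e) and 1 lower (Col6a1). The 7 neutrophil markers summed to 11.2 and 15.6 CPM in MSC and to 347 and 521 CPM in MSC+RAW-LPS-TW, with 2 to 5 of them at 0 in a library. The 3 adipocyte markers summed to 19.4 and 20.6 CPM in MSC and to 8.89 and 11.1 CPM in MSC+RAW-LPS-TW, and none was at 0. The 6 osteoclast markers summed to 51.0 and 52.6 CPM in MSC and to 116 and 139 CPM in MSC+RAW-LPS-TW. In each library 1 of them was at 0. Of 3 tested only Acp5 was higher, and it was called, while the median log2 fold change of the 3 was -0.24. The part of the cells in the levels of Ppargc1b, Ncoa3, Ncoa1 and Nrip1 was not tested.

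The third comparison, MSC+RAW-TW against MSC, has by its labels untreated macrophages in the place of the activated ones. No member was called by edgeR, nor by DESeq2, while edgeR called 18.5% of all genes. At an unadjusted p under 0.05 there were 4 of 7 members and 43.4% of all genes. Without the limit on fold Ncoa1 fell, as 1 of 7 members, against 31.5% of all genes. MSC+RAW-TW counts as 1 sample, assumed to vary like the other groups, and the MSC libraries are those of the second comparison.

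Ncoa1 was at 23.9 and 21.6 CPM in the MSC+RAW-TW libraries, about as in MSC+RAW-LPS-TW, and its log2 fold change against MSC was -0.89 (SE 0.21, adjusted p = 0.00966). It shares 68 bases of exon with 4921501I09Rik on the opposite strand. Ncoa3 was at 119 and 120 CPM, between the other MSC groups, with a log2 fold change of -0.43 (SE 0.18, adjusted p = 0.0918). Nrip1 was at 14.0 and 14.2 CPM, under both MSC libraries, with -0.44 (SE 0.20, adjusted p = 0.108). The value of Nrip1 without the trends was 0.19, on the other side of 0.

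Esr1 was at 2.84 and 3.73 CPM in MSC+RAW-TW, below both MSC libraries, with a log2 fold change of -0.75 (SE 0.34, adjusted p = 0.109) and of -0.24 without the trends. Gper1 was at 3.76 and 4.89 CPM, above MSC, with 0.62 (SE 0.40, adjusted p = 0.266) and 0.07 with the trends removed. Ppargc1b at 3.28 and 3.19 CPM and Esrra at 19.0 and 21.3 CPM overlapped with MSC. Their log2 fold changes were -0.16 (SE 0.41, adjusted p = 0.796) and 0.08 (SE 0.20, adjusted p = 0.781). In all, 5 of 7 members did not overlap, against 79.8% of all genes.

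Markers moved here as well. Of 12 macrophage markers C1qa and Spi1 were called higher in MSC+RAW-TW and none lower. Without the limit on fold 4 macrophage markers passed higher and 4 lower, and 6 of the 12 were higher. Of 12 stromal markers Eng and Thy1 were called higher and Dcn and Pdgfra lower. The osteoclast markers summed to 85.8 and 86.2 CPM against 51.0 and 52.6 in MSC, with Acp5 called higher among 3 tested and 2 of 6 at 0 in each MSC+RAW-TW library. The neutrophil markers summed to 31.9 and 29.3 CPM against 11.2 and 15.6, with S100a8 called higher among 2 tested. The part of these cells in the level of Ncoa1 was not tested.

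The fourth comparison, MSC+RAW-LPS-TW relative to MSC+RAW-TW, differs by its labels in whether the macrophages were activated. In the edgeR fit over all MSC groups it gave the most members, with Nrip1 called higher and Gper1 and Ppargc1b called lower. It also had the largest share of all genes called of the 4 comparisons, at 30.8%. DESeq2 called 2 members here and 2 in MSC+RAW-LPS-TW against MSC. Ncoa3 fell by less than 2-fold, so 4 of 7 members passed the adjusted p without the limit on fold, against 44.5% of all genes. Without GC and length trends none of the 7 members was called. This comparison shares its libraries with the second and the third.

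Nrip1 was 2.30-fold higher with LPS, 33.6 and 32.1 CPM against 14.0 and 14.2 CPM. All libraries of one group lay far from the other, and the log2 fold change was 1.20 (SE 0.20, adjusted p = 0.000785). Taking the trends out gave 0.50 (adjusted p = 0.0522), which takes it from called to not passing.

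Gper1 was 2.42-fold lower, with 1.44 and 2.15 CPM against 3.76 and 4.89 CPM, from 51 to 181 counts. The log2 fold change was -1.27 (SE 0.41, adjusted p = 0.0249). It no longer passed without MSC+RAW-TW library b (-1.07, adjusted p = 0.0547), without MSC+RAW-LPS-TW library a (-1.01, adjusted p = 0.0578) or with the trends removed (-0.73, adjusted p = 0.158).

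Ppargc1b was 2.15-fold lower, with 1.49 and 1.55 CPM against 3.28 and 3.19 CPM. Its log2 fold change was -1.11 (SE 0.40, adjusted p = 0.0441). It no longer passed when any of 4 libraries was left out, MSC replicate 1 (adjusted p = 0.0781), MSC replicate 2 (0.0657), MSC+RAW-TW library a (0.0534) or MSC+RAW-LPS-TW library a (0.0576). Nor did it pass with DESeq2 (adjusted p = 0.0844) or in a fit of the compared groups alone (adjusted p = 0.115). Taking the trends out gave a log2 fold change of -0.57 (adjusted p = 0.276).

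Ncoa3 was the member least moved by the trends, at -0.66 (SE 0.17, adjusted p = 0.0101) and -0.66 without them (adjusted p = 0.00763). Esrra had a log2 fold change of 0.36 (SE 0.20, adjusted p = 0.165) and Ncoa1 0.18 (SE 0.20, adjusted p = 0.496). For Esr1 the libraries overlapped, and the log2 fold change was 0.00 (SE 0.33, adjusted p = 0.995) or, with the trends removed, -0.53 (adjusted p = 0.209). The summed macrophage markers were lower than in MSC+RAW-TW by the ranges given above, with 5 of 12 called lower and 4 higher. Of 12 stromal markers 5 were called higher and 2 lower. The neutrophil markers summed to 31.9 and 29.3 CPM in MSC+RAW-TW and to 347 and 521 with LPS, both tested ones called higher, and 4 of 7 were at 0 in each MSC+RAW-TW library. The adipocyte markers summed to 23.6 and 22.5 CPM and, with LPS, to 8.89 and 11.1, with 2 of 3 called lower. The osteoclast markers summed to 85.8 and 86.2 CPM and, with LPS, to 116 and 139, and of 3 tested 1 passed and none was called. Only 1 of these 3 was higher with LPS, and their median log2 fold change was -0.40. The part of these cells in the levels of Nrip1, Gper1, Ppargc1b and Ncoa3 was not tested.

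**Figure D4:**
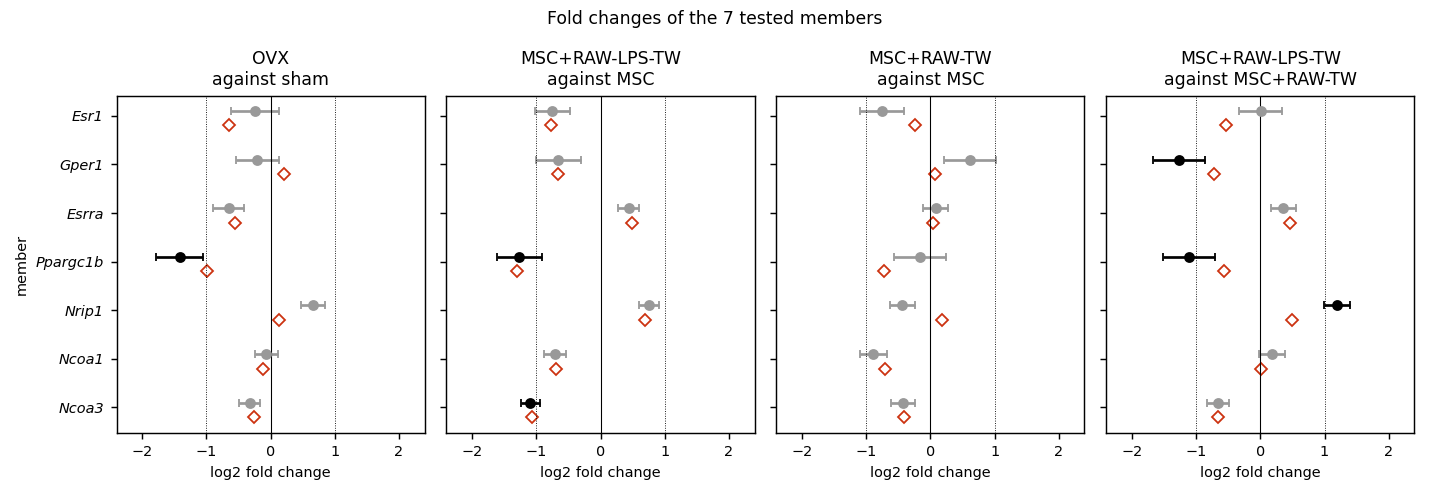
Log2 fold change (horizontal axes) of the 7 tested members in the 4 comparisons, as filled points with SE bars, black where called and grey where not, and as open diamonds without GC and length trends. Dotted lines mark a 2-fold change. Points and diamonds lie close together in MSC+RAW-LPS-TW against MSC and apart for Nrip1, Gper1 and Ppargc1b in MSC+RAW-LPS-TW relative to MSC+RAW-TW.

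The start regions of the members called there were read from RefSeq windows of GRCm38.p6, which held 8 of the 10 members in 13 windows, all but Ncoa3 and Ppargc1b. Nrip1 and Gper1 are shown because they moved to opposite sides and their start regions differ in base composition. Only bases before the annotated exons are printed, and capitals mark GC boxes (GGGCGG on either strand, overlapping matches included). The distal Nrip1 start, at the end of the annotated gene, has 51.2% GC and 4 CpG (chr16:76373828-76374077, minus strand). The second Nrip1 start, inside the first intron, has 73.6% GC and 32 CpG (chr16:76373050-76373299, minus strand). The Gper1 start has 41.4% GC and 1 CpG (chr5:139422929-139423150, plus strand).
Nrip1 distal start: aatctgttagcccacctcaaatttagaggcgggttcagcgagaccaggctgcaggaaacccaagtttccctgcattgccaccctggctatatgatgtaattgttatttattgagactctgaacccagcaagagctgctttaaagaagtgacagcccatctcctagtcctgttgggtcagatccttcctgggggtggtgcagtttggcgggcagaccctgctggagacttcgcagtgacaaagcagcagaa
Nrip1 second start: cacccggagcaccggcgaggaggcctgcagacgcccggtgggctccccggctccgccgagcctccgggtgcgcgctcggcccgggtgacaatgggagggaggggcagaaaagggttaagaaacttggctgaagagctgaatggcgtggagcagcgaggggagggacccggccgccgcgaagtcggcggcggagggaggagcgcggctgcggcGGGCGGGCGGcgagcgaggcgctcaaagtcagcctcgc
Gper1 start: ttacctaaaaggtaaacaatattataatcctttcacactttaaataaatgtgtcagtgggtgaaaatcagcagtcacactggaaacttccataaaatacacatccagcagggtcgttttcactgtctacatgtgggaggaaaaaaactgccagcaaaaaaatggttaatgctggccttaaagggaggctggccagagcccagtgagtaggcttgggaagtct

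The full windows of 300 bases were searched on both strands. The estrogen response element (GGTCA, 3 bases of any kind, then TGACC) was in none of the 13 member windows and in 0.07% of all 32851 windows. The element of the estrogen-related receptors (TCAAGGTCA) was in none of the 13 and in 0.423% of all, and the half-site AGGTCA, which is part of that element, was in none of the 13 and in 16.3% of all. The GC box was in 6 of the 13 windows, those of Esrra, Gper1, Ncoa1, Nrip1 and 2 of Esrrg, and in 35.7% of all.

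Other genes of the pathway were followed in 5 lists. In OVX against sham none of 26 tested coregulators, 14 estrogen-responsive genes and 8 genes of estrogen synthesis and metabolism was called by edgeR or by DESeq2. At an unadjusted p under 0.05 edgeR gave 4, 1 and 1 of them, against 31.2% of all genes, and their median log2 fold changes were -0.09, 0.07 and -0.06, against -0.01 over all genes. At an adjusted p of at most 0.05 and no limit on fold, the coregulator Wbp2 was the only one of them to pass (-0.88, adjusted p = 0.0461). The aromatase gene Cyp19a1, which makes estrogen, was among the 4 synthesis genes with too few counts to test in either experiment.

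Among 22 tested targets of the estrogen-related receptors and PGC-1, 1 was called higher and 1 lower in OVX, against 9.06% of all genes called, and the median was -0.21. At an unadjusted p under 0.05 there were 11 of these 22 targets and 12 of 22 other nuclear receptors, against 31.2% of all genes. Sod2, the superoxide dismutase of mitochondria, fell from 757 CPM in sham to 242 in OVX (-1.62, adjusted p = 0.00531). Gabpa, a factor for respiratory chain genes, rose from 18.2 to 41.3 CPM (1.20, adjusted p = 0.0168), and was not called with the trends removed (0.54, adjusted p = 0.0750). Sdhb (-0.75, adjusted p = 0.0352), a subunit of succinate dehydrogenase named here outside the naming rule, fell by less than 2-fold. Without the limit on fold 1 of the 22 targets passed higher and 3 lower, and 8 of the 22 were higher. Of 22 other nuclear receptors 1 was called, Nr1h3 (the oxysterol receptor LXRα), which fell from 30.2 to 9.31 CPM (-1.67, adjusted p = 0.00562).

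In MSC+RAW-LPS-TW against MSC the estrogen-responsive list had 5 of 13 tested genes called lower and none higher, where 11.8% of all genes were called, with a median of -0.36 against -0.01 over all genes. They were Ccn5 (108 to 27.6 CPM, -1.94), Igfbp4 (684 to 223 CPM, -1.59) and Ctsd (2176 to 768 CPM, -1.48), and, outside the naming rule and chosen after their values were seen, Bcl2 (-1.16) and Ccnd1 (-1.03). These encode a matricellular protein, an IGF-binding protein, a lysosomal protease, a survival factor and a cyclin. Each adjusted p was at most 0.00529. These genes are known to answer to many signals besides estrogen.

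Of 22 targets of the estrogen-related receptors and PGC-1 1 was called higher and 2 lower in that comparison, near the share of 11.8% over all genes, and the median was -0.07. At an unadjusted p under 0.05 there were 9 of 22, against 33% of all genes. Sod2 rose from 158 to 1502 CPM (3.28, adjusted p = 1.03e-07), the opposite side from its change in OVX. Pdk4, which restrains pyruvate oxidation, fell from 19.8 to 4.84 CPM (-2.004, adjusted p = 5.20e-05), and Lpin1 from 8.52 to 4.06 CPM (-1.04, adjusted p = 0.00669).

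Genes of estrogen synthesis and metabolism gave 2 of 8 higher and 1 lower, also beside 11.8% of all genes. Cyp1b1, which hydroxylates estrogens, rose from 59.4 to 199 CPM (1.77, adjusted p = 1.81e-05), Hsd17b7 rose from 7.41 to 17.4 CPM (1.26, adjusted p = 0.00288) and Hsd17b11 fell from 114 to 44.9 CPM (-1.32, adjusted p = 0.000184). Of 24 other nuclear receptors 3 were called higher and 3 lower, against 11.8% of all genes. Vdr, the vitamin D receptor, rose from 12.6 to 47.7 CPM (1.95, adjusted p = 3.53e-05), Nr4a2 from 1.61 to 6.10 CPM (1.95, adjusted p = 0.00133) and Nr1h3 from 14.5 to 39.7 CPM (1.48, adjusted p = 0.000105). Pparg, the receptor of adipocyte differentiation, fell from 17.7 to 5.97 CPM (-1.54, adjusted p = 0.000162). Nr3c2, also called lower, had a mean under 1 CPM, as did Nr0b2, the 1 of 27 other coregulators called (lower).

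With untreated RAW264.7 cells Igfbp4 and Ctsd were on the other side of MSC. Igfbp4 was at 1360 CPM in MSC+RAW-TW against 684 in MSC (1.04, adjusted p = 0.00406), and Ctsd at 4354 against 2176 CPM (1.05, adjusted p = 0.00345). Without the trends both stayed higher at 0.66 and 0.53, under the limit on fold. They were the 2 of 13 estrogen-responsive genes called, while 18.5% of all genes were called in MSC+RAW-TW against MSC. Neither this list nor that of the coregulators exceeded that share. Of 27 coregulators 2 were called higher and 1 lower, the prohibitin Phb2 (1.42, adjusted p = 0.00190), the HSP90 cochaperone Fkbp4 (1.24, adjusted p = 0.00314) and the acetyltransferase Kat2b (-1.39, adjusted p = 0.00255). Without the trends Fkbp4 was at 0.75 and no longer called.

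In the remaining lists of that comparison 2 of 22 targets of the estrogen-related receptors and PGC-1, 2 of 8 genes of estrogen metabolism and 4 of 24 other nuclear receptors were called, against 18.5% of all genes. Among the targets these were Sdhb (1.26, adjusted p = 0.00129) and Gabpa (-1.02, adjusted p = 0.00600), among the genes of estrogen metabolism Hsd17b10 (1.12, adjusted p = 0.00265) and Hsd17b12 (1.10, adjusted p = 0.00170). Rxrb, a partner of other nuclear receptors, was called higher (1.11, adjusted p = 0.00279), and Nr1d2 (-1.13, adjusted p = 0.0148) and Nr2c1 (-1.03, adjusted p = 0.0110) lower, with Nr3c2 again under 1 CPM. Of these 7 genes with at least 1 CPM, Hsd17b12 was still called with the trends removed.

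In MSC+RAW-LPS-TW relative to MSC+RAW-TW, where 30.8% of all genes were called, the lists had calls on both sides. Of 27 coregulators 5 were higher and 3 lower, of 13 estrogen-responsive genes 1 and 3, of 22 targets of the estrogen-related receptors and PGC-1 2 and 3, of 8 genes of estrogen metabolism 2 and 3, and of 24 other nuclear receptors 6 and 4. The largest rises and falls with at least 1 CPM were Kat2b (1.94), Ncoa7 (1.38), Perm1 (1.11), Phb2 (-1.24) and Fkbp4 (-1.23) among coregulators. Among estrogen-responsive genes they were Igfbp4 (-2.63), Ctsd (-2.52) and Ccn5 (-2.34), and Greb1, the 1 called higher, had a mean under 1 CPM. Sod2 (2.61), Gabpa (1.58), Pdk4 (-1.66), Lpin1 (-1.36) and Sdhb (-1.21) led the targets.

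Of the genes of estrogen metabolism, Cyp1b1 (2.71), Hsd17b7 (1.92), Hsd17b11 (-2.17), Hsd17b10 (-1.74) and Hsd17b4 (-1.05) were called. The other nuclear receptors were led by Nr4a2 (2.13), Vdr (2.02) and Rora (1.33), and, among those called lower, included Pparg (-1.73) and Rxra (-1.07). Without the trends Ncoa7 (0.39), Phb2 (-0.89), Fkbp4 (-0.72), Gabpa (0.81), Sdhb (-0.79), Hsd17b4 (-0.99), Rora (0.41) and Rxra (-0.64) were no longer called. The other list genes named here with at least 1 CPM were still called.

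**Figure D5:**
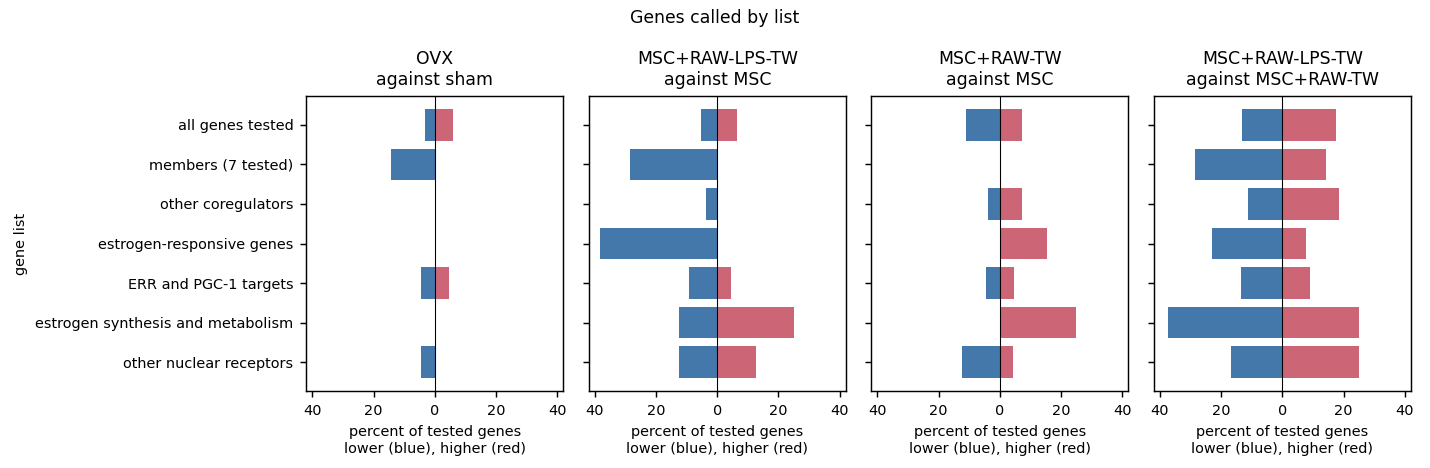
Percent of the tested genes of each list (rows) called higher (red, to the right) or lower (blue, to the left) in each of the 4 comparisons, with all genes tested in the top row. In OVX against sham all bars of the other lists are short or empty, and in MSC+RAW-LPS-TW against MSC the 5 of 13 estrogen-responsive genes are all on the lower side.

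The genes whose level followed Esr1 and Nrip1 most closely were sought over the 12 libraries, as 10 samples with each near-identical pair as 1, among the 13629 genes whose mean reached 1 CPM. For Esr1 they were Trap1, Ccl9, Slc7a7, Cipc and D6Wsu163e, with Pearson's r of log2 CPM between 0.911 and 0.932. For Nrip1 they were Tjp1, Osmr, Gm37800, Aebp2 and Lman1, with r between 0.947 and 0.969. The samples share groups, experiments and base composition, and the values are given as a description.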

How the data were processed

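Total RNA was selected for poly(A) and made into libraries with a directional kit. According to the submitters' processing notes and the study's methods, the authors trimmed reads with Trim Galore 0.6.7, mapped them to GRCm38 with HISAT2 2.1.0 and counted them per Ensembl gene with featureCounts 2.0.1. The deposited tables hold whole-number counts with no scaling or filter. How strand and read pairs were handled in counting is not given in the sources used here. Even values were 60.0% to 71.4% of the counts from 1 to 20, so counts are not independent molecules and floors cover counting error only.

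Members were found through GENCODE M21, which named 55141 of the 55487 identifiers. The members and lists were chosen with earlier results of these data known. Counts were tested with edgeR 4.0.16 in R 4.3.3 (filterByExpr, TMM, quasi-likelihood F-test), with p adjusted over all 15778 genes (BMM table) or 18806 (MSC table). The fit over all MSC groups gave 3 comparisons. Near-identical libraries were summed after filtering. A call needed a 2-fold change and an adjusted p no higher than 0.05, and passing needed that p alone. All members were named, and from each other list and comparison up to 3 called genes of the largest rise and 3 of the largest fall with a mean of at least 1 CPM. Trends on GC content and length were removed as lowess offsets (span 0.3). Fold changes are on the log2 scale as edgeR fits them. Both MSC+RAW-TW columns carry the number 1 and the MSC+RAW-LPS-TW columns 2 and 3, where the labels number the replicates 1 and 2, so columns were matched to the group alone and are called libraries a and b. The fits were tested on simulated data. Alternatives are listed in the closing section. Some genes that the naming rule picks are not reported here.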

Additional observations from a re-analysis of the deposited data

How the results depend on the processing

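The cause of each change below was not tested. In the 4 comparisons 1, 2, 0 and 3 members were called, and these counts stayed within 1.5 times under most alternatives. That limit takes 2 in place of 3 as the same, as with DESeq2 between the co-cultures. At such small counts it cannot show that the calls are stable. Both MSC+RAW-TW columns carry the number 1 and the MSC+RAW-LPS-TW columns 2 and 3, so the number could not pair the MSC groups and was used as a block in OVX against sham alone. In OVX against sham, the deviations of same-numbered libraries correlated at 0.409, -0.026 and 0.353. OVX replicates 1 and 3 correlated best with their own number, and OVX replicate 2 was at 0.059, -0.026 and -0.054 with sham replicates 1 to 3. With 3 libraries per group and sham replicates 2 and 3 nearly identical, these values cannot decide whether the numbers pair the samples. With the replicate number as a block and all libraries separate, 1 member was called, as without it, and Nrip1 (0.69, adjusted p = 0.00565), Esrra (-0.57, adjusted p = 0.0186) and Ncoa3 (-0.34, adjusted p = 0.0456) passed under the limit on fold. Taking GC and length trends out left 0 members called in OVX against sham and 0 in the comparison of MSC+RAW-LPS-TW and MSC+RAW-TW, where 1 and 3 had been called. It gave 0.21 for Gper1 in OVX against sham, 0.19 for Nrip1 in MSC+RAW-TW against MSC, and -0.53 for Esr1 between the co-cultures. Over all genes it called 593 in OVX against sham, 38.1% of them higher, where 1430 had been called with 65.1% higher, and 2107 in place of 3474 in MSC+RAW-TW against MSC. A filter at 1 CPM moved the called genes there from 39.8% to 50% higher. Dropping the limit on fold gave 4 members in MSC+RAW-LPS-TW against MSC and 1 in MSC+RAW-TW against MSC, from 2 and 0. The Esr1 value of 0.00 between the co-cultures turned to -0.015 with RLE, -0.015 with DESeq2, -0.015 with no filter and -0.00068 with a filter at 1 CPM.

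Leaving out each library in turn gave 347 genes (without OVX replicate 2) to 2374 (without sham replicate 1) in OVX against sham. It gave 0 to 1 members called in OVX against sham, 1 to 2 in MSC+RAW-LPS-TW against MSC and 1 to 3 between the co-cultures. The log2 fold change of Esr1 then ran from -0.43 to 0.22 in OVX against sham and from -0.18 to 0.22 between the co-cultures, and that of Ncoa1 there from -0.012 to 0.37. In MSC+RAW-TW against MSC, Esrra ran from -0.020 to 0.15 and Ppargc1b from -0.39 to 0.097. Of 392 values of single members under alternatives, 362 kept their direction and call, 17 lost the call, 13 changed sign and 0 gained a call with the limit on fold. The library codes in the column names form 2 sets, and with that code as a block and all libraries separate, chosen after the data were seen, the calls were the same in both experiments. Under the limit on fold, Nrip1 then passed in OVX against sham (adjusted p = 0.0286), Esr1 (0.0437) and Esrra (0.0357) in MSC+RAW-LPS-TW against MSC, Esr1 (0.0239), Nrip1 (0.0160) and Ncoa3 (0.00685) in MSC+RAW-TW against MSC, and Esrra between the co-cultures (0.0413), all adjusted p. They also passed with all libraries separate and no block. DESeq2 called 4 of the 22 targets of the estrogen-related receptors and PGC-1 in OVX against sham, where edgeR called 2. Depth limits Esr2, Esrrg and Ppargc1a, which were at or near the floor of 3 counts.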
